A study of Homo sapiens with 6 samples.

Results

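To see how fluoxetine affected the non-coding host genes of small nucleolar RNAs (snoRNAs), the 10 genes GAS5, SNHG1, SNHG3, SNHG5, SNHG6, SNHG8, SNHG12, SNHG15, SNHG16 and ZFAS1 were taken by symbol from the 31762 genes of the count table. Each symbol had 1 row there. RNA was sequenced from H460 cells, an established human lung carcinoma cell line labelled as wild type and grown in RPMI-1640 medium with fetal bovine serum. The study compared 3 control libraries with 3 libraries of cells treated with 20 µM fluoxetine, a selective serotonin reuptake inhibitor, for 24 h. The labels do not say whether the controls received a vehicle, and they do not tie the libraries to separate cultures, so p-values measure the spread between these libraries, which may be technical.

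A snoRNA host gene carries snoRNAs in its introns. Splicing frees the intron, the snoRNA is trimmed out of it, and the snoRNA then guides methylation or pseudouridylation of ribosomal RNA. The spliced host RNA that remains has at most short reading frames. Ribosomes that read them end far from the last exon junction, which marks the RNA for nonsense-mediated decay (NMD), a decay route that depends on translation. Host RNA is therefore known to build up when translation is blocked or cells stop growing, and GAS5 (growth arrest specific 5) is named for this. Many hosts also start with a 5′ terminal oligopyrimidine tract (5′TOP), the run of C and T bases that opens ribosomal protein mRNAs and ties their translation to mTOR.

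The starts of 8 hosts are shown because such a tract would stand there. The letters are 25 bases before the RefSeq start and the first 25 bases of the RNA, from RefSeq on GRCh38.p14, 5′ to 3′ on the strand of the gene. Capitals mark a C followed by at least 4 C or T bases, searched on that strand from 10 bases before to 10 bases after the start. Where several C bases met this, the capitals begin at the one nearest the start, so a C before them can belong to the same run, as in SNHG12 and SNHG8. SNHG6 and SNHG15 are not shown.
SNHG12 (chr1:28581849-28581898, minus strand): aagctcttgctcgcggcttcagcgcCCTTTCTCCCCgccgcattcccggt
SNHG5 (chr6:85678709-85678758, minus strand): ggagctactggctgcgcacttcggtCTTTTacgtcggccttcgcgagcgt
ZFAS1 (chr20:49278617-49278666, plus strand): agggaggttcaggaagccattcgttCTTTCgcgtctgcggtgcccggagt
SNHG8 (chr4:118278737-118278786, plus strand): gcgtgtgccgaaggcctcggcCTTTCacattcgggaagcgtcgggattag
SNHG16 (chr17:76557739-76557788, plus strand): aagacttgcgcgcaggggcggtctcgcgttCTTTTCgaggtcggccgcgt
SNHG1 (chr11:62855861-62855910, minus strand): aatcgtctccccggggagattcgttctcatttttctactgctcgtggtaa
SNHG3 (chr1:28505918-28505967, plus strand): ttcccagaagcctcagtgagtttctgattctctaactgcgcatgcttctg
GAS5 (chr1:173869021-173869070, minus strand): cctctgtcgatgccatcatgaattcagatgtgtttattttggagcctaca
A match began exactly at the RefSeq start in SNHG12, SNHG5 and ZFAS1, which is 3 of 8 hosts, and in 4.07% of 35116 promoters of the same table. It lay within 10 bases of the start in 5 of 8 hosts and in 33.5% of all promoters. The stretch in capitals was longest in SNHG12, with 11 bases. The GAS5 start of RefSeq, at 173869045, lies upstream of the gene of the count table, which spans 173863900 to 173868882 on the minus strand of chromosome 1. The SNHG3 start of RefSeq, at 28505943, also lies upstream of its gene, which begins at 28505980. Only RefSeq starts were searched, so a missing match does not show that a host lacks a tract.

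The library totals lay between 16157507 and 27823667 counts, and every fluoxetine library was less deep than every control library. All 10 hosts passed the filter on low counts, with 113 to 7966 counts per host and library. Levels are given as CPM, counts relative to library size after TMM normalization, which evens out differences in composition. A smaller share of the RNA and less of the RNA per cell cannot be told apart here, nor can fewer cells of a kind. With all libraries thinned to the lowest depth, the same number of hosts was called as below, 3. The 5 epithelial markers summed to 3057 to 4027 CPM in control and 2689 to 3264 CPM in fluoxetine libraries, nearly all of it KRT8, KRT18 and KRT19. KRT18 fell from 511.5 ± 45.0 to 311.6 ± 39.2 CPM (SD, n = 3, log2 fold change -0.72, edgeR adjusted p = 0.00162), KRT8 had a log2 fold change of -0.34 (edgeR adjusted p = 0.131) and KRT19 of -0.15 (edgeR adjusted p = 0.322). The part of this shift in the results on the hosts was not tested. In contrast, CDH1 had no count in the control libraries and EPCAM was at most at 11 counts. The summed lung lineage markers (NKX2-1, SFTPC and NAPSA) were at most at 0.684 CPM, and the 7 measured markers of immune, endothelial and mesenchymal cells at 7.64 to 10.3 CPM in control and 8.73 to 9.40 CPM in fluoxetine libraries.

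After fluoxetine treatment, all 10 hosts had a lower mean level. The median log2 fold change of the hosts was -0.36, against 0.03 for the 15646 genes tested, of which 45.8% were below 0. SNHG1, SNHG15 and GAS5 fell at an adjusted p-value under 0.05 (quasi-likelihood test of edgeR, p-values adjusted over all tested genes by the Benjamini-Hochberg method). These are 3 of 10 hosts, and 5.32% of all tested genes fell by the same rule. At an unadjusted p-value under 0.05, 8 of 10 hosts were lower, against 12.9% of the tested genes. None of the hosts (0 of 10) was higher by either rule, against 7.76% of tested genes by the adjusted and 15.8% by the unadjusted one. With DESeq2, 6 hosts were called lower and 0 higher, when 6.98% of tested genes fell and 1142 genes rose. In 7 of 10 hosts, every fluoxetine library lay below every control library, which held for 14.4% of tested genes. No host (0 of 10) passed that threshold with a fold of at least 2, and 0.147% of tested genes did so in this direction. The direction is opposite to the build-up that is known of host RNA when growth stops. Growth, translation and RNA decay were not measured in these libraries, and the cause of the lower levels was not tested. An exact permutation test of 1 gene cannot go below p = 0.1 with 3 libraries a group.

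**Figure D1:**
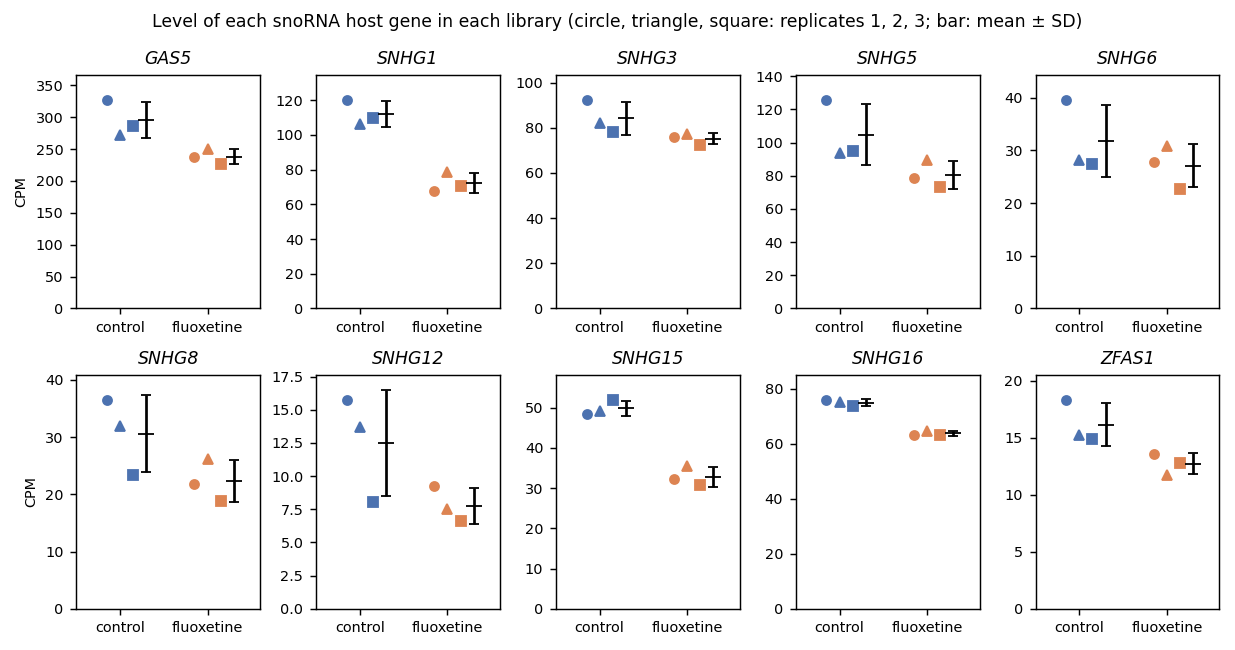
Level of each of the 10 snoRNA host genes in CPM (y axis, from 0, own scale per gene) in 3 control and 3 fluoxetine libraries, with the mean and SD as a bar beside the points. The groups are apart in 7 genes, most widely for SNHG1 and SNHG15, and overlap in SNHG6, SNHG8 and SNHG12.

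SNHG1 (ENSG00000255717), a host of several box C/D snoRNAs, spans 62851988 to 62855914 of chromosome 11 (minus strand). It had 120.3, 106.4 and 109.5 CPM in control replicates 1, 2 and 3. The fluoxetine libraries, in the same order, had 67.7, 78.5 and 70.3 CPM. The highest fluoxetine library was thus well below the lowest control library. The log2 fold change was -0.63 (SE 0.09, edgeR adjusted p = 0.00130), which is a level 35.6% lower. SNHG1 kept its call in each of 15 other fits, with log2 fold changes between -0.73 and -0.61.

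SNHG15 (ENSG00000232956), a short-lived host RNA, spans 44983023 to 44986961 of chromosome 7 (minus strand). The control libraries had 48.4, 49.3 and 51.9 CPM, and the fluoxetine libraries 32.2, 35.4 and 30.7 CPM. The controls lay close together here, with a coefficient of variation of 3.74%. The log2 fold change was -0.61 (SE 0.09, edgeR adjusted p = 0.00227), or 34.3% lower, and it passed the threshold in all 15 other fits with adjusted p-values of at most 0.0274.

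GAS5 (ENSG00000234741) carries many box C/D snoRNAs, and its RNA is also known to bind the glucocorticoid receptor. It had 327.6, 272.0 and 287.0 CPM in the control libraries, and 237.7, 250.6 and 226.6 CPM with fluoxetine. The groups did not overlap, although the gap between control replicate 2 and fluoxetine replicate 2 was small. GAS5 fell by 0.31 on the log2 scale (SE 0.08, edgeR adjusted p = 0.0353). The call was lost without control replicate 1 (adjusted p = 0.0701), without fluoxetine replicate 1 (adjusted p = 0.121) and without fluoxetine replicate 3 (adjusted p = 0.118), by the same edgeR test, with log2 fold changes of -0.26, -0.33 and -0.30. Over all 15 other fits its adjusted p-value lay between 0.00102 and 0.121.

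SNHG16 (ENSG00000163597, chromosome 17, 76557766 to 76565348, plus strand) was the steadiest host. Its control libraries had 76.0, 75.3 and 73.6 CPM and its fluoxetine libraries 63.2, 64.7 and 63.4 CPM. The groups were clearly apart and the coefficient of variation was 1.61% in control and 1.30% in fluoxetine libraries. The log2 fold change of -0.23 (SE 0.07) nevertheless missed the threshold (edgeR adjusted p = 0.0561), and it passed in 4 of 15 other fits.

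SNHG5 (ENSG00000203875, chromosome 6, 85660950 to 85678736, minus strand) had 125.9, 93.8 and 94.8 CPM in the control libraries and 78.5, 89.6 and 72.9 CPM in the fluoxetine libraries. Control replicate 1 stood above the other libraries, and fluoxetine replicate 2 reached nearly to control replicate 2. The log2 fold change was -0.38 (SE 0.12, edgeR adjusted p = 0.0657). ZFAS1 (ENSG00000177410, chromosome 20, 49278178 to 49295738, plus strand), which hosts the SNORD12 family, had 18.3, 15.2 and 14.9 CPM in control and 13.6, 11.8 and 12.8 CPM in fluoxetine libraries. The groups of ZFAS1 did not overlap, and its log2 fold change was -0.34 (SE 0.12, edgeR adjusted p = 0.0991).

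SNHG12 (ENSG00000197989, chromosome 1, 28578538 to 28582983, minus strand), with the longest tract above, had the largest log2 fold change of the 10 hosts, -0.68, and also the largest error (SE 0.23, edgeR adjusted p = 0.0829). Its level was 15.7, 13.7 and 8.07 CPM in the controls, and 9.23, 7.49 and 6.58 CPM with fluoxetine. Control replicate 3 lay below fluoxetine replicate 1, so the groups overlapped. Without control replicate 3 the log2 fold change of SNHG12 was -0.96.
SNHG8 (ENSG00000269893, chromosome 4, 118278709 to 118279823, plus strand), the shortest of these genes, showed the same order among the controls, with 36.5, 32.0 and 23.3 CPM. The fluoxetine libraries had 21.9, 26.2 and 18.9 CPM. Fluoxetine replicate 2 was above control replicate 3, and the log2 fold change was -0.45 (SE 0.17, edgeR adjusted p = 0.109).

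SNHG6 (ENSG00000245910, on the minus strand of chromosome 8) and SNHG3 (ENSG00000242125, chromosome 1, 28505980 to 28510892, plus strand) differed least between the groups. SNHG6 had 39.6, 28.2 and 27.4 CPM in control and 27.7, 30.8 and 22.7 CPM in fluoxetine libraries. Apart from control replicate 1, its libraries were mixed between the groups. Its log2 fold change was -0.23, with a 95% interval from -0.58 to 0.12 (edgeR adjusted p = 0.389), and it was -0.07 without control replicate 1. SNHG3 had 92.5, 82.0 and 78.3 CPM in control and 75.7, 77.2 and 72.5 CPM in fluoxetine libraries. The SNHG3 groups were apart by a narrow margin. Its log2 fold change was -0.17, with a 95% interval from -0.35 to 0.02 (edgeR adjusted p = 0.227).

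Across the hosts, control replicate 1 was the highest control library in 9 of 10 genes, and control replicate 3 was the lowest in 6 of 10. Among the fluoxetine libraries, replicate 2 was the highest in 8 of 10 genes and replicate 3 the lowest in 7 of 10. The mean deviation of the 10 hosts from their own average was 0.38, 0.16 and 0.05 (log2) in the control libraries in order of replicate number, and -0.17, -0.11 and -0.31 in those with fluoxetine. The hosts thus shared a shift between libraries of one group as well as a shift between the groups. The number of hosts called was 8 without control replicate 3, when 12.7% of tested genes fell. SNHG5, SNHG8, SNHG12, SNHG16 and ZFAS1 passed then, with edgeR adjusted p-values between 0.00207 and 0.0369. It was 4 without fluoxetine replicate 2, when SNHG5 passed (edgeR adjusted p = 0.0371) and 6.96% of tested genes fell, and 3 without control replicate 2, with 2.75%. It was 2 without control replicate 1, without fluoxetine replicate 1 and without fluoxetine replicate 3, when 3.48%, 1.01% and 2.01% of tested genes fell. These shares are of genes that fell, whereas the counts of the lists below, when a library is left out, take calls in either direction. Genes that rose numbered 642, 484 and 1627 without control replicates 1, 2 and 3. They numbered 409, 1086 and 611 without fluoxetine replicates 1, 2 and 3.

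**Figure D2:**
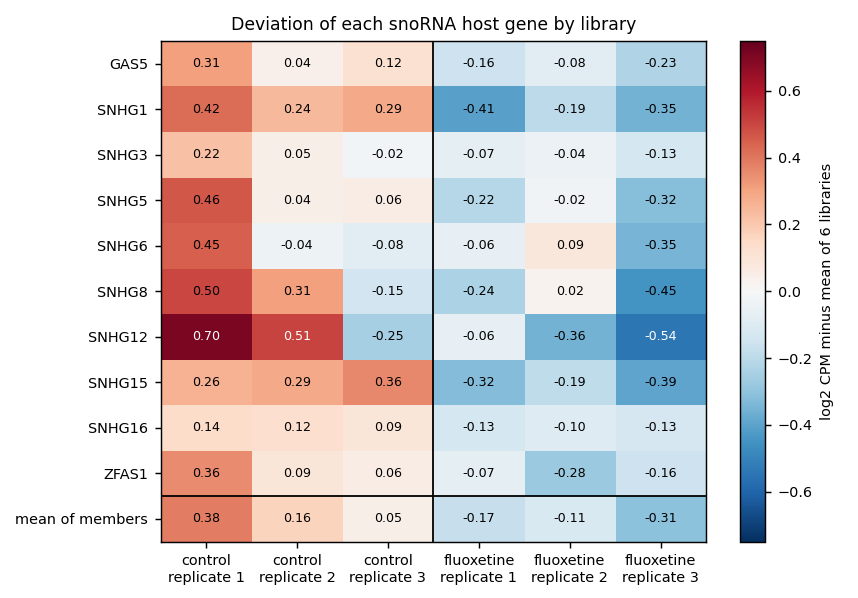
Deviation of log2 CPM from the mean over 6 libraries (colour and number in each cell) for each snoRNA host gene (rows, with the mean of the 10 hosts in the last row) and library (columns). Control replicate 1 is above 0 in every row, and fluoxetine replicate 3 is below 0 in every row.

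**Figure D3:**
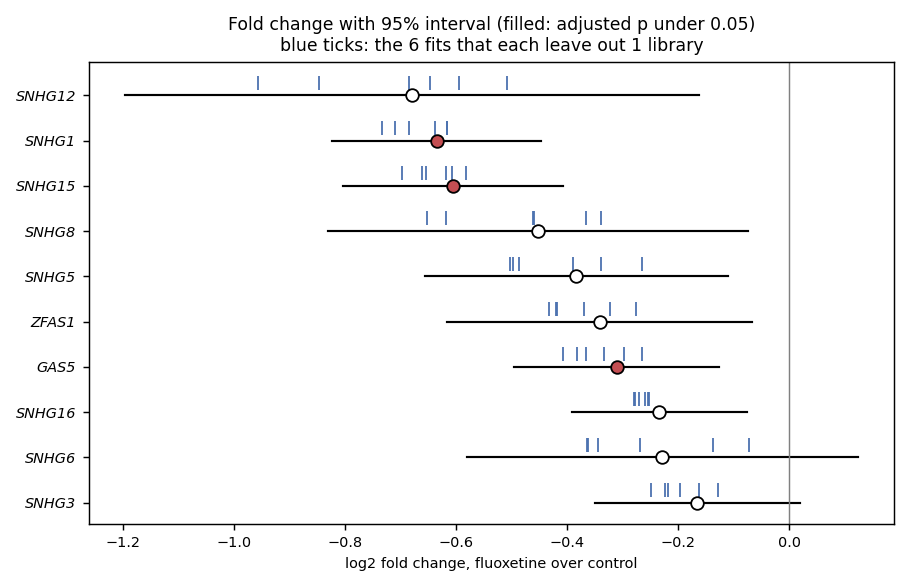
Log2 fold change of fluoxetine over control (x axis) with its 95% interval for each host, from -0.68 for SNHG12 to -0.17 for SNHG3. Filled points mark SNHG1, SNHG15 and GAS5, which passed the adjusted threshold, and ticks mark the 6 fits that each left out 1 library, which all lie below 0.

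Per kilobase of exon, using the merged exons of GENCODE release 29, GAS5 was the most abundant host, at 81.4 ± 7.93 CPM per kilobase (SD, n = 3) in control cells and 65.6 ± 3.32 (SD, n = 3) after fluoxetine treatment. SNHG5 at 37.4 ± 6.50, SNHG8 at 33.2 ± 7.27 and SNHG1 at 29.8 ± 1.94 CPM per kilobase (SD, n = 3) followed in control cells, then SNHG6 at 25.5 ± 5.49 and SNHG3 at 20.6 ± 1.80 CPM per kilobase. From SNHG5 to SNHG3, neighbours in this order differed by less than the larger of their SDs. SNHG16 at 14.0 ± 0.226 and SNHG15 at 13.7 ± 0.512 CPM per kilobase were likewise within their spread. The lowest were ZFAS1 at 7.19 ± 0.847 and SNHG12 at 2.93 ± 0.931 CPM per kilobase. The order depends on the length used, since the exons of all isoforms were merged. They covered 3756 of 3927 bases of the SNHG1 gene, but 1247 of 4715 of SNHG6. For SNHG12 they held 4266 bases, in a GENCODE gene from 28578538 to 28583132, which is longer than that of the count table. After fluoxetine treatment SNHG1 was at 19.2 ± 1.49 CPM per kilobase (SD, n = 3), beside SNHG3 at 18.4 ± 0.589, from which it had been apart in control cells.

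To compare the hosts with each other, ratios within a library were taken. The ratio of each host to the other 9 in the same library needs no normalization, and it was compared over 10 hosts by an exact permutation test (two-sided). SNHG1 had a log2 ratio of -2.64 ± 0.05 (SD, n = 3) in control and -2.96 ± 0.08 (SD, n = 3) in fluoxetine libraries, a difference of -0.32. SNHG15 differed by -0.26, and SNHG3, in the other direction, by 0.22. In these 3 hosts the libraries of the groups did not overlap (exact permutation p = 0.1, the smallest that 3 against 3 allows, and 0.333 after Benjamini-Hochberg adjustment). The libraries of the groups overlapped for the other 7 hosts, with differences of -0.29 for SNHG12, 0.15 for SNHG6, 0.14 for SNHG16, -0.09 for SNHG8, 0.08 for GAS5, -0.02 for SNHG5 and 0.02 for ZFAS1 (exact permutation p between 0.2 and 1).

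Several hosts share a promoter region or an overlap with another gene, which gives a neighbour to compare. SNHG1 starts 188 bases from SLC3A2, which is transcribed the other way and encodes the heavy chain of amino acid transporters. SLC3A2 had 302.1, 303.6 and 224.5 CPM in control and 256.6, 302.6 and 220.3 CPM in fluoxetine libraries, so its groups overlapped (log2 fold change -0.09, SE 0.13, edgeR adjusted p = 0.695). The log2 ratio of SNHG1 to SLC3A2 was lower by 0.55 on average in fluoxetine libraries (-1.84 against -1.29) without overlap between the groups (exact permutation p = 0.1). ZFAS1 starts 248 bases from ZNFX1, a gene of antiviral RNA sensing on the other strand, whose level was 74.2 ± 5.92 CPM (SD, n = 3) in control and 82.8 ± 11.4 CPM (SD, n = 3) in fluoxetine libraries (log2 fold change 0.16, edgeR adjusted p = 0.373). The ratio of ZFAS1 to ZNFX1 went from -2.20 to -2.70 (log2), again without overlap (exact permutation p = 0.1). GAS5 and ZBTB37, a zinc finger gene whose start lies 800 bases away on the other strand, overlap by 801 bases. ZBTB37 had a log2 fold change of 0.29 (SE 0.14, edgeR adjusted p = 0.211), and the ratio of GAS5 to it went from 3.54 to 2.94 with overlapping libraries (exact permutation p = 0.2). When 1 library was left out, the log2 fold change lay between -0.25 and -0.01 for SLC3A2, between 0.03 and 0.22 for ZNFX1 and between 0.16 and 0.40 for ZBTB37, which passed the threshold without control replicate 3 (edgeR adjusted p = 0.0421).

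For SNHG3, the neighbour overlaps it. SNHG3 lies entirely within RCC1 on the same strand, a gene for the nucleotide exchange factor of RAN that hosts snoRNAs too. RCC1 fell from 178.8 ± 6.19 to 115.7 ± 3.14 CPM (SD, n = 3), which is a log2 difference of -0.63 (SE 0.07, edgeR adjusted p = 3.38e-04), whereas SNHG3 differed by -0.17. The log2 ratio of SNHG3 to RCC1 was -1.09 in control and -0.62 in fluoxetine libraries, without overlap (exact permutation p = 0.1). Reads in shared exons cannot be assigned to either gene with certainty. SNHG12 and TRNAU1AP overlap by 8 bases, and TRNAU1AP had a log2 fold change of -0.17 (edgeR adjusted p = 0.476). SNHG6 overlaps MCMDC2 by 365 bases, with 33.3 counts per library on average for MCMDC2 and a log2 fold change of 0.33 (edgeR adjusted p = 0.601), which was 0.02 without control replicate 2 and 0.81 without control replicate 3. GAS5-AS1 and AC015802.6, which overlap GAS5 and SNHG16 on the other strand, had mean counts of at most 6.33 per library. Whether the counting used strand is not given in the sources used here.

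**Figure D4:**
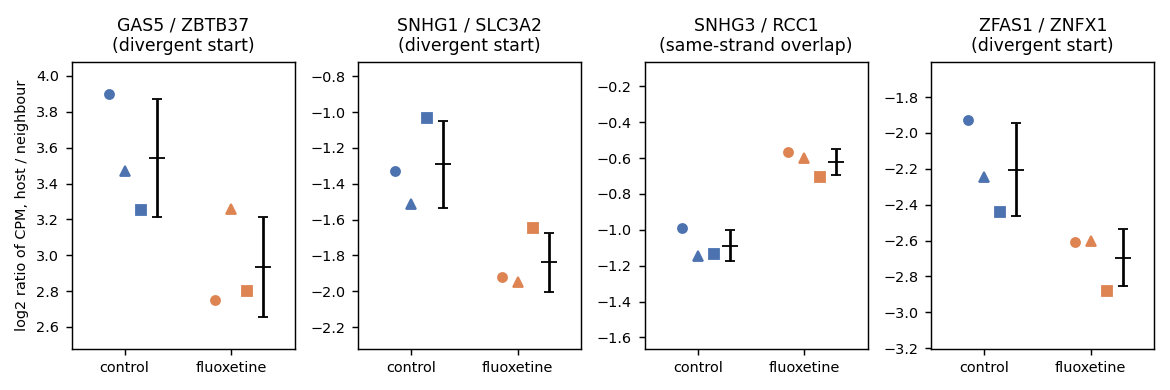
Log2 ratio of the CPM of a host to that of its neighbour (y axis, span of 1.6 in each panel) in 3 control and 3 fluoxetine libraries, with mean and SD. The ratio is lower with fluoxetine for SNHG1 to SLC3A2 and ZFAS1 to ZNFX1, overlaps for GAS5 to ZBTB37, and is higher with fluoxetine for SNHG3 to RCC1.

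Besides the hosts, the table holds rows for 6 snoRNAs that lie inside 5 of the hosts on the same strand. SNORA9 overlaps an exon of SNHG15 and the other 5 lie in introns. The 4 with the most counts are shown, since their sequences lie within these hosts. Sequences are those of GENCODE release 29 (GRCh38), 5′ to 3′. Capitals mark TGATGA (the C box) in the first 20 bases and CTGA (the D box) in the last 20 bases of the SNORD RNAs, and ACA before the last 3 bases of SNORA73B, searched on the transcribed strand.
SNORD12B (chr20:49280319-49280409, plus strand, in ZFAS1): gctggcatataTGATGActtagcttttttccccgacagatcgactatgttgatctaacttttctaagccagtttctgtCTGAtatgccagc
SNORD12C (chr20:49278940-49279028, plus strand, in ZFAS1): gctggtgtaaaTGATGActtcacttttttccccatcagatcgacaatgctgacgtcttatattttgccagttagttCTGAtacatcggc
SNORD99 (chr1:28578749-28578822, minus strand, in SNHG12): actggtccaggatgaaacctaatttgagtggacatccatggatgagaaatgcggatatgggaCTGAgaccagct
SNORA73B (chr1:28508559-28508762, plus strand, in SNHG3): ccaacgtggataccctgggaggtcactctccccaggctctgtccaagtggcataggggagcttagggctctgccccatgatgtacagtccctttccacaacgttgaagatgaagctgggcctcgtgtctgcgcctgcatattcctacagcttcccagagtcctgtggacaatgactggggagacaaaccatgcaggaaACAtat
Among 288 SNORD transcripts of that release, 66.7% had the C box letters and 94.4% the D box letters in these windows, and 75.2% of 149 SNORA transcripts had the ACA.

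Few reads fell on the snoRNA rows, and such counts do not separate mature snoRNA from unspliced host RNA. Their sum was 84, 100 and 105 counts in the control libraries, and 64, 74 and 67 counts in the fluoxetine libraries. This is 3.78 to 5.21 CPM in control and 3.89 to 4.40 CPM in fluoxetine libraries, so the groups overlapped, while the 5 hosts together had 226.8 to 250.9 CPM and 185.9 to 196.6 CPM. SNORA73B, in an intron of SNHG3, was counted 59, 62 and 64 times in control and 36, 56 and 45 times in fluoxetine libraries. Its log2 fold change was -0.0006 with a 95% interval from -0.51 to 0.51 (edgeR adjusted p = 0.999). SNORD99, in SNHG12, was counted 16, 27 and 18 times and 8, 8 and 13 times, with a log2 fold change of -0.65 and an interval from -1.57 to 0.27 (edgeR adjusted p = 0.344), and it was -0.29 without control replicate 2. SNORD12B and SNORD12C in ZFAS1, SNORA9 in SNHG15 and SNORD1B in SNHG16 had at most 19 counts in a library and did not pass the filter on low counts. At this depth, the intervals of SNORA73B and SNORD99 include 0 and the fold change of SNHG3 or SNHG12, respectively. The interval of SNORA73B does not include the log2 fold change of RCC1 (-0.63), within which SNHG3 lies.

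Of 24 further symbols of non-coding snoRNA hosts, 19 were in the table and 14 could be tested. SNHG26 and C6orf48 (now SNHG32) fell, with log2 fold changes of -0.97 and -0.45 (edgeR adjusted p = 0.00984 and 0.0278), and 0 rose. Among all tested genes, 5.32% fell and 7.76% rose. At an unadjusted p-value under 0.05, 6 were lower, against 12.9% of tested genes, and 1 was higher, against 15.8%. This was SNHG14 (log2 fold change 0.21), which passed the adjusted threshold without control replicate 3 (edgeR adjusted p = 0.0467). The median log2 fold change was -0.27, and 12 of 14 were below 0. SNHG26 went from 5.25 ± 0.170 to 2.68 ± 0.674 CPM (SD, n = 3). DANCR, a host that had 90.0 CPM in control cells, had a log2 fold change of -0.08 (edgeR adjusted p = 0.603). The number called was 8 without control replicate 3, 5 without fluoxetine replicate 2, 0 without fluoxetine replicate 1, and 1 without any other single library.

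Protein-coding genes can carry snoRNAs too. Of 24 ribosomal protein hosts, all had a log2 fold change below 0, with a median of -0.30. By the adjusted threshold 5 fell (5.32% of all tested genes did) and 0 rose (7.76%), and RPS13, RPL12, RPL30 and RPL21 were among those that fell, with log2 fold changes between -0.43 and -0.31. This count was 20 without control replicate 3 (12.7% of tested genes fell then) and 16 without fluoxetine replicate 2 (6.96%), and 0 without any single one of the other 4 libraries (1.01% to 3.48%). Of 26 other coding hosts, 11 fell and 0 rose, against the same 5.32% and 7.76%. Their median log2 fold change was -0.23, and 24 of 26 were below 0. They include RCC1, NOP56 and NCL (nucleolin), with log2 fold changes of -0.63, -0.53 and -0.50, GNL3 (nucleostemin) at -0.42 and EIF4A2, a translation initiation helicase, at -0.37 (edgeR adjusted p of at most 0.00683). Leaving out fluoxetine replicate 1 lowered this count to 6, when 1.01% of tested genes fell.

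The next list holds genes for proteins that bind snoRNAs or assemble their particles, measured here as RNA. Of 17 listed and 16 tested, 7 fell (5.32% of all tested genes) and 0 rose (7.76%), with a median log2 fold change of -0.27. FBL (fibrillarin, the methyltransferase of box C/D particles) fell from 245.7 ± 27.6 to 169.1 ± 11.8 CPM (SD, n = 3), which is a log2 difference of -0.54 (edgeR adjusted p = 0.00477). Its partners NOP56 and NOP58 had log2 fold changes of -0.53 and -0.37, DKC1 (dyskerin, the pseudouridine synthase of H/ACA particles) -0.39 and RUVBL1, an assembly factor, -0.32 (edgeR adjusted p of at most 0.0186). NOP56, NOP58 and DKC1 are also among the other coding hosts. The count was 3 without fluoxetine replicate 1, 4 without fluoxetine replicate 3 and 11 without control replicate 3. Of 20 listed and 18 tested genes of 5′TOP mRNAs outside the ribosome's own proteins, for the most part translation factors, 4 fell and 0 rose, against 5.32% and 7.76% of tested genes. These were NPM1 (nucleophosmin), HNRNPA1, EEF1D and EEF1B2, with log2 fold changes between -0.50 and -0.34, and the median was -0.19. Their count was 9 without control replicate 3, 7 without fluoxetine replicate 2, 2 without control replicate 2 and 0 without fluoxetine replicate 1. EEF1B2 is also among the other coding hosts, as are EEF2 and TPT1, which were not called.

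The decay machinery itself held genes on both sides of 0. Of 24 NMD factors, 5 fell and 0 rose, with a median log2 fold change of -0.06, and at an unadjusted p-value under 0.05 there were 7 lower and 2 higher. The shares among all tested genes were 5.32% and 7.76% by the adjusted threshold, and 12.9% and 15.8% by the unadjusted one. The 5 were EIF4A3, MAGOH, MAGOHB and RNPS1, which belong to or bind the exon junction complex, and UPF3B, which links that complex to UPF2. MAGOH fell from 19.5 ± 3.06 to 12.4 ± 1.85 CPM (SD, n = 3), which is a log2 difference of -0.65 (edgeR adjusted p = 0.0183), and the other 4 had values between -0.46 and -0.26. The helicase UPF1 had a log2 fold change of -0.25 (adjusted p = 0.0816), UPF2 of 0.02 (adjusted p = 0.911), the kinase SMG1 of 0.18 (adjusted p = 0.529) and the exonuclease XRN1 of 0.46 (adjusted p = 0.0907), by the same edgeR test. Without control replicate 3, UPF1 and XRN1 passed (adjusted p = 0.00677 and 0.0101). The count of factors called was 0 without fluoxetine replicate 1, 2 without control replicate 1 or fluoxetine replicate 3, 3 without control replicate 2 and 8 without control replicate 3.

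Coding genes whose RNA, or an isoform of it, is a known NMD substrate went in both directions. Of 18, 2 rose and 7 fell, against 7.76% and 5.32% of all tested genes. DDIT3 and ATF3, transcription factors of the integrated stress response, had log2 fold changes of 1.23 and 0.94 (edgeR adjusted p = 0.00142 and 0.00158). The genes that fell include the splicing factors SRSF7 and SRSF3, at -0.48 and -0.39, and GADD45B, a growth arrest and DNA damage gene, at -0.93 (edgeR adjusted p of at most 0.0111). ATF4, whose RNA is also an NMD substrate, had a log2 fold change of -0.08 (edgeR adjusted p = 0.674). Counts per gene do not separate the isoforms that NMD removes from those it leaves. The number called was 4 without fluoxetine replicate 1 and 5 without fluoxetine replicate 3.

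**Figure D5:**
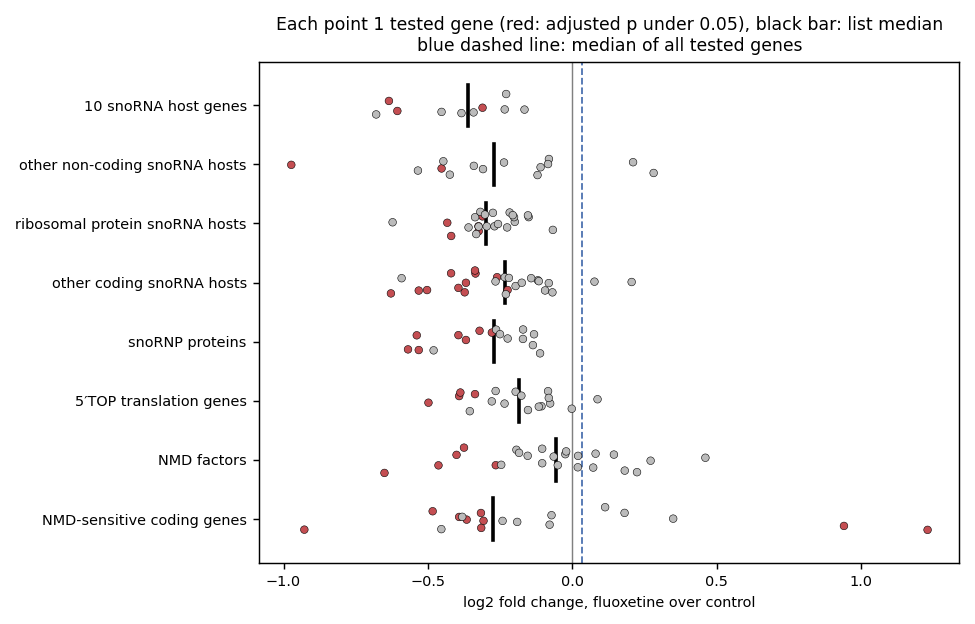
Log2 fold change of fluoxetine over control (x axis) for every tested gene of each list (points, red where the adjusted p-value was under 0.05), with the list median as a bar. The medians of the 4 groups of snoRNA hosts lie between -0.36 and -0.23, that of the NMD factors at -0.06, and that of all tested genes at 0.03.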

How the data were processed

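The authors deposited 1 table with raw read counts per gene, without normalization or pooling, for 3 control and 3 fluoxetine libraries of H460 cells. The log2 values and the p-value columns deposited beside them (the authors' own comparison of fluoxetine with control) were not used. Per the labels, the submitters' processing notes name fastp 0.20.0, HISAT2 2.1.0, HTSeq 0.10.0 and DESeq2 1.18.1. Strandedness and the annotation release are not given in the sources used here. Gene positions are on GRCh38. Start and end equalled those of GENCODE release 29 for 96.8% of genes found in both.

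The test was that of edgeR 4.0.16 under R 4.3.3 (glmQLFit and glmQLFTest, TMM, filterByExpr, no covariate), with Benjamini-Hochberg adjustment over 15646 genes. A gene was called where its adjusted p-value was under 0.05, whatever its fold change. The standard error was taken from the fold change and its F statistic. Log2 CPM used a prior count of 2. The depth of 16157507 to 27823667 counts makes 3 counts worth 0.108 to 0.182 CPM, for counting error only. Within groups, the chi-square of the counts per degree of freedom was at least 3.74, above sampling noise, so all 6 libraries were kept. The highest value within a group, 25.3 for control replicates 1 and 3, was above the 23.1 of control replicate 2 against fluoxetine replicate 2. On simulated counts, 200 of 200 genes changed 2-fold were recovered with 10 false calls among 15469 genes. The changed genes were drawn from those with higher counts, and all genes had the same dispersion. Smaller changes, such as those of the hosts, were not simulated.

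The 10 genes and the further lists were chosen with earlier results of these data known, and no list was tested as a set. From each further list, up to 5 called genes with the smallest p-values are named, and so are all genes that overlap a host, the snoRNA rows within hosts and the 5 genes most alike in pattern. Some genes that this rule covers are not reported here. SLC3A2, SNHG14, DANCR, UPF1, UPF2, SMG1, XRN1, ATF4 and the keratins were named after their values were seen. Alternatives were DESeq2 1.42.0, limma-voom (limma 3.58.1), RLE scaling, scaling by library size alone, a replicate block, no low-count filter, a minimum of 10 counts per library throughout, equal depth (thinned to 16157507 counts), symbols summed, and each library left out once. The ratios between hosts and to neighbours within 1000 bases were added after seeing the data.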

Additional observations from a re-analysis of the deposited data

How the results depend on the processing

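The log2 fold change was below 0 for all 10 hosts in all 150 alternative fits (15 per host), and the side of the threshold was kept in 128 of them. SNHG1 and SNHG15 passed the threshold and SNHG3 and SNHG6 missed it in every fit. DESeq2 (6.98% of tested genes fell) called 6 hosts and 10 ribosomal protein hosts. With no filter on low counts, 4.77% of tested genes fell and 1393 genes rose. Called in either direction were then 6 hosts, 7 other non-coding hosts, 19 ribosomal protein hosts and 9 5′TOP genes. The number of ribosomal protein hosts called was 3 with limma-voom (4.84% of tested genes fell) and with library size only (4.61%). The cause was not tested. With the replicate number as a block, 4018 genes were called in place of 2047. Of these, 2231 rose and 1787 fell (11.4% of tested genes). Called in either direction were 8 hosts in place of 3, 7 other non-coding hosts, 17 ribosomal protein hosts, 8 NMD factors and 8 5′TOP genes. Whether the numbers pair the libraries cannot be settled with 3 libraries a group. The deviations of same-numbered libraries from their group means had correlations of 0.03, 0.12 and 0.39, the last being the highest across groups. Control replicate 1 correlated best with fluoxetine replicate 2 (0.32).

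Leaving out 1 library at a time, the genes called lay between 572 and 3633, the hosts between 2 and 8, the other non-coding hosts between 0 and 8, the ribosomal protein hosts between 0 and 20, the other coding hosts between 6 and 15, the snoRNP proteins between 3 and 11, the NMD factors between 0 and 8, the NMD-sensitive genes between 4 and 11 and the 5′TOP genes between 0 and 9. The log2 fold change of SNORA73B, at -0.0006, changed sign to 0.0085 with limma-voom, 0.0198 with library size only, 0.0006 with at least 10 counts in every library, and lay between -0.2081 (without fluoxetine replicate 2) and 0.1048 (without fluoxetine replicate 1) when 1 library was left out. For UPF2, a log2 fold change of 0.02 was -0.006 with DESeq2 and RLE scaling, -0.0153 with no filter on low counts, and between -0.0436 and 0.0398 when 1 library was left out. The snoRNA rows had at most 64 counts in a library.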

Other observations

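The genes whose pattern over the 6 libraries was most like the average of the 10 hosts were RER1 (a retrieval receptor between Golgi and ER), RPL27, GADD45B, RPL30 and PTMA (prothymosin alpha). Their Pearson correlation with that average was between 0.995 and 0.997 over 6 libraries, which fall into 2 groups and share their depth and scaling, so it is a description only. Their log2 fold changes were -0.31, -0.38, -0.93, -0.42 and -0.41. Of these, RPL27 and RPL30 are ribosomal proteins and RPL30 hosts snoRNAs. PTMA was the most abundant, at 1978 CPM in control and 1485 CPM in fluoxetine libraries on average.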
